A study of Arabidopsis thaliana with 14 samples.

Results

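Line N2102363 was set against line N2102362, a pair of independent transgenic Arabidopsis thaliana lines that overexpress the transcription factor gene WRKY75 on induction with estradiol. The comparison used the libraries titled for these lines and all genes in the count files. This gave 4 libraries of each line, or 8 of the 14 in the series. Libraries were matched by replicate number for the pair-by-pair values and for fits with that number as a block. The main fit, which gave the log2 fold changes and their SEs, used all 14 libraries and did not use the matching. All 8 came from whole rosettes of plants 3 weeks old, kept at 22 °C in the 12 h light period and at 19 °C in the dark. Both lines had received a spray of 50 µM estradiol and 0.001% of the wetting agent Silwet-L77 and were harvested 3 h later as pools of 5 rosettes. The remaining libraries were wild-type Col-0 plants sprayed with the same estradiol mixture (n = 3) or with water and Silwet-L77 (n = 3), and they are given as a reference. Each line stands for 1 independent transformant, and line plants without estradiol were not analysed here. A difference between the lines in the amount of WRKY75, in the place of the transgene or in genetic background therefore cannot be told apart.

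WRKY proteins are plant transcription factors that bind a short DNA element, the W-box, in the promoters of their targets. WRKY75 belongs to group IIc of the family. In Arabidopsis it is known for roles in the phosphate starvation response, in leaf senescence and in defence. In an estradiol-inducible system the hormone activates a synthetic transcription factor that switches the transgene on, so lines can differ in how strongly the same gene is induced.

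WRKY75 was 2.97-fold higher in N2102363 than in N2102362, and higher in 4 of 4 same-numbered pairs. The lines overlapped between libraries of different number, and the difference was not called over all genes. In the main fit, which did not use the pairing, edgeR called 1 gene among 19666 tested, the cytochrome P450 gene CYP81D5. It was 29.2-fold higher in N2102363. That gene lay within the wild-type range in N2102363 and nearly absent from N2102362. A transporter gene, ZIFL1, was lower in N2102363 and was called by other fits of the same counts.

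The sequences just before these genes are shown because the W-box is the element WRKY proteins bind. They are the 250 bases upstream of the gene starts in the files, 5′ to 3′ along each gene's strand, read from the RefSeq TAIR10.1 nuclear chromosomes. The positions are chr5:4151151-4151400 (minus strand) for WRKY75, chr4:17561728-17561977 (minus strand) for CYP81D5 and chr5:4437950-4438199 (plus strand) for ZIFL1. Capitals mark a W-box, searched as TTGACC or TTGACT on either strand.
WRKY75: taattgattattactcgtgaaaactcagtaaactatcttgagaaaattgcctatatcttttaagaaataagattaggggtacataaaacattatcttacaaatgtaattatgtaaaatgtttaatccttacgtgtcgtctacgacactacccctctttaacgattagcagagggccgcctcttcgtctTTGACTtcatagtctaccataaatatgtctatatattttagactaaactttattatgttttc
CYP81D5: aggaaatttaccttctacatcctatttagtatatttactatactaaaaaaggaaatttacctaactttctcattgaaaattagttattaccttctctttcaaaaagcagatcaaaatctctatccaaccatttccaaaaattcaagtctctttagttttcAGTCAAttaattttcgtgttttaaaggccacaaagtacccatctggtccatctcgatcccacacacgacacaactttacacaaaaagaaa
ZIFL1: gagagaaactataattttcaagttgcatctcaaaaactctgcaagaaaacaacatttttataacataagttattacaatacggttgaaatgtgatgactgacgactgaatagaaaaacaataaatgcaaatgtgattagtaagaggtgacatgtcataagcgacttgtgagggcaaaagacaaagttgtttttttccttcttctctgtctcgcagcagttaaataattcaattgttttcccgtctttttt
WRKY75 held 1 W-box, starting 62 bases before the gene start. CYP81D5 held 1 on the other strand, starting 90 bases before it. None was found in these letters for ZIFL1. Of the 19576 upstream sequences of this length for genes tested, 5667 (28.9%) held a W-box, so its presence is common, and a match is a description and not a binding site. The sequence is that of the native WRKY75 locus. The promoter of the transgene is a different one, and the counts do not separate native from transgene transcripts.

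Levels are given as CPM, read counts scaled to a common library total after TMM, the edgeR method that corrects totals for composition. WRKY75 (AT5G13080, chr5:4149740-4151150, minus strand, TAIR10) stood at 29.6, 30.7, 28.2 and 82.1 CPM in replicates 1 to 4 of N2102362. In N2102363 it stood at 76.7, 146, 116 and 167 CPM. Col-0 held between 0.428 and 2.69 CPM over its 6 libraries. All 8 line libraries were thus far above wild type. The lines overlapped through a pair of libraries, since replicate 4 of N2102362 was higher than replicate 1 of N2102363. The means were 42.6 ± 26.3 CPM (SD, n = 4) in N2102362 and 126 ± 39.3 CPM (SD, n = 4) in N2102363. The log2 fold change, N2102363 minus N2102362 here and throughout, was 1.57 ± 0.40 (SE), with a 95% interval from 0.71 to 2.43. It was not called over all genes by edgeR's quasi-likelihood test with Benjamini-Hochberg adjustment (adjusted p = 1.00, unadjusted p = 0.0017).

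Within pairs of one replicate number N2102363 was always the higher line. The ratio was 2.59 in pair 1, 4.76 in pair 2, 4.11 in pair 3 and 2.04 in pair 4. The mean log2 difference of the pairs was 1.67 ± 0.57 (SD, n = 4). An exact two-sided sign-flip test gave p = 0.125, the smallest that 4 pairs allow. An exact two-sided permutation test of the unpaired levels gave p = 0.0571, where 4 against 4 allow 0.0286. Replicate 4 was the highest library of WRKY75 in each line and the pair with the smallest ratio. Replicate 4 of both lines also differed from the others in its file names, which carry a date. Without it in both lines the log2 fold change was 1.93 (adjusted p = 0.592), and without N2102362 replicate 4 alone it was 2.1 (adjusted p = 0.177).

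**Figure D1:**
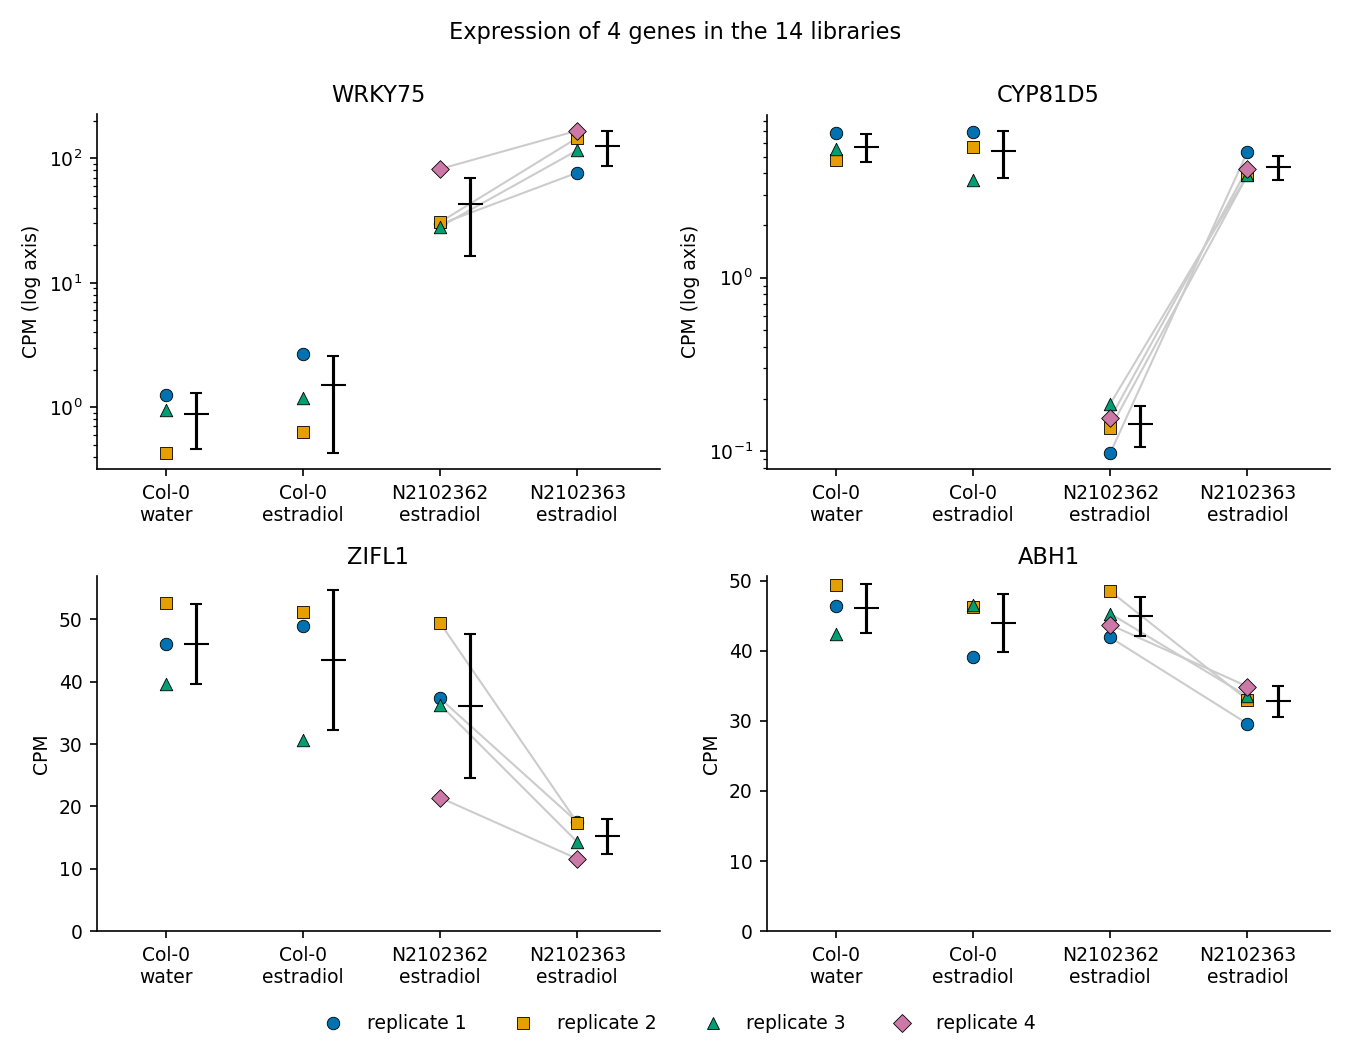
CPM of WRKY75 and CYP81D5 (log axes) and of ZIFL1 and ABH1 (linear axes from 0) in the 14 libraries, by group. Symbols are libraries coloured by replicate number, black bars beside them are mean ± SD, and grey lines join same-numbered libraries of the lines; CYP81D5 lies at 0.187 CPM or less in N2102362 and at 3.64 CPM or more in all other libraries.

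CYP81D5 (AT4G37320, chr4:17559580-17561727, minus strand) encodes a cytochrome P450 of the CYP81D subfamily, a class of enzymes that oxidise small molecules. It was the 1 gene called (0.00508% of genes tested). Its level was 0.0971, 0.135, 0.187 and 0.154 CPM in N2102362, against 5.33, 3.90, 3.91 and 4.26 CPM in N2102363. Col-0 held 3.64 to 6.91 CPM, so N2102363 lay within the wild-type range and N2102362 below every other library. The log2 fold change was 4.87 ± 0.29 (SE, adjusted p = 6.28e-06 by edgeR's quasi-likelihood test). The gene was higher in N2102363 in 4 of 4 pairs. The counts behind it were low, 2 to 4 per library in N2102362 and 81 to 121 in N2102363. Summed, they came to 12 and 375, and the ratio after scaling was 30.4 (95% exact interval 17.2 to 59.4, for counting error only). Against Col-0 with estradiol the log2 fold change was -5.18 ± 0.30 in N2102362 (adjusted p = 1.90e-06) and -0.31 ± 0.21 in N2102363 (adjusted p = 0.543). These contrasts share their Col-0 libraries.

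No gene around CYP81D5 was called. Of the 10 annotated genes on each side, 15 were tested and 0 passed edgeR's adjusted threshold or an unadjusted p under 0.05. Their log2 fold changes ran from -1.18 to 0.55 within 43.7 kb. The lowest, AT4G37290, had a wide 95% interval, from -2.88 to 0.51. Further CYP81 genes of the same cluster had values of -0.01 for CYP81H1, 0.21 for CYP81D4, 0.55 for CYP81D8, -0.27 for CYP81F3 and 0.20 for CYP81F4. Their 95% intervals all included 0, and those of CYP81D8 and CYP81F4 reached 1.26 and 1.66. The closest match to CYP81D5 in the genome was CYP81D4, at 77.8% identity over 510 bases, and no gene matched it at 95% or more. Counts per gene do not show whether its sequence is intact in N2102362, and the place of the transgene was not analysed here.

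ZIFL1 (AT5G13750, chr5:4438200-4441579, plus strand) encodes a membrane transporter of the major facilitator superfamily, known in Arabidopsis for a role in auxin transport in roots and in stomata. It held 37.3, 49.4, 36.3 and 21.4 CPM in N2102362 and 17.5, 17.4, 14.3 and 11.6 CPM in N2102363. Col-0 held 30.6 to 52.6 CPM. The lines did not overlap, and N2102363 was below all 10 other libraries. The log2 fold change was -1.25 ± 0.24 (SE), not called by edgeR (adjusted p = 0.874). Other fits called it lower in N2102363: a fit of the 8 line libraries with the replicate number as a block (-1.22, adjusted p = 0.0375) and DESeq2 (-1.24, adjusted p = 0.00324). The block in the fit of all 14 libraries gave an adjusted p of 0.256.

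ZIF1, a related transporter known for zinc storage in the vacuole, is the gene next to ZIFL1. It is named after values were seen, as a family member beside ZIFL1. It stood at 37.9 to 49.6 CPM in N2102362 and 25.5 to 37.3 CPM in N2102363, without overlap, and lower in 4 of 4 pairs. On the log2 scale the change was -0.48 ± 0.19 (SE, adjusted p = 1.00 by edgeR). Col-0 held 35.3 to 68.0 CPM. Of 17 tested neighbours of ZIFL1, 0 were called, with log2 fold changes from -0.48 to 0.35. ZIFL1 and WRKY75 lie on the same chromosome, 287 kb apart, and the 16 tested neighbours of WRKY75 had values from -0.16 to 0.51.

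**Figure D2:**
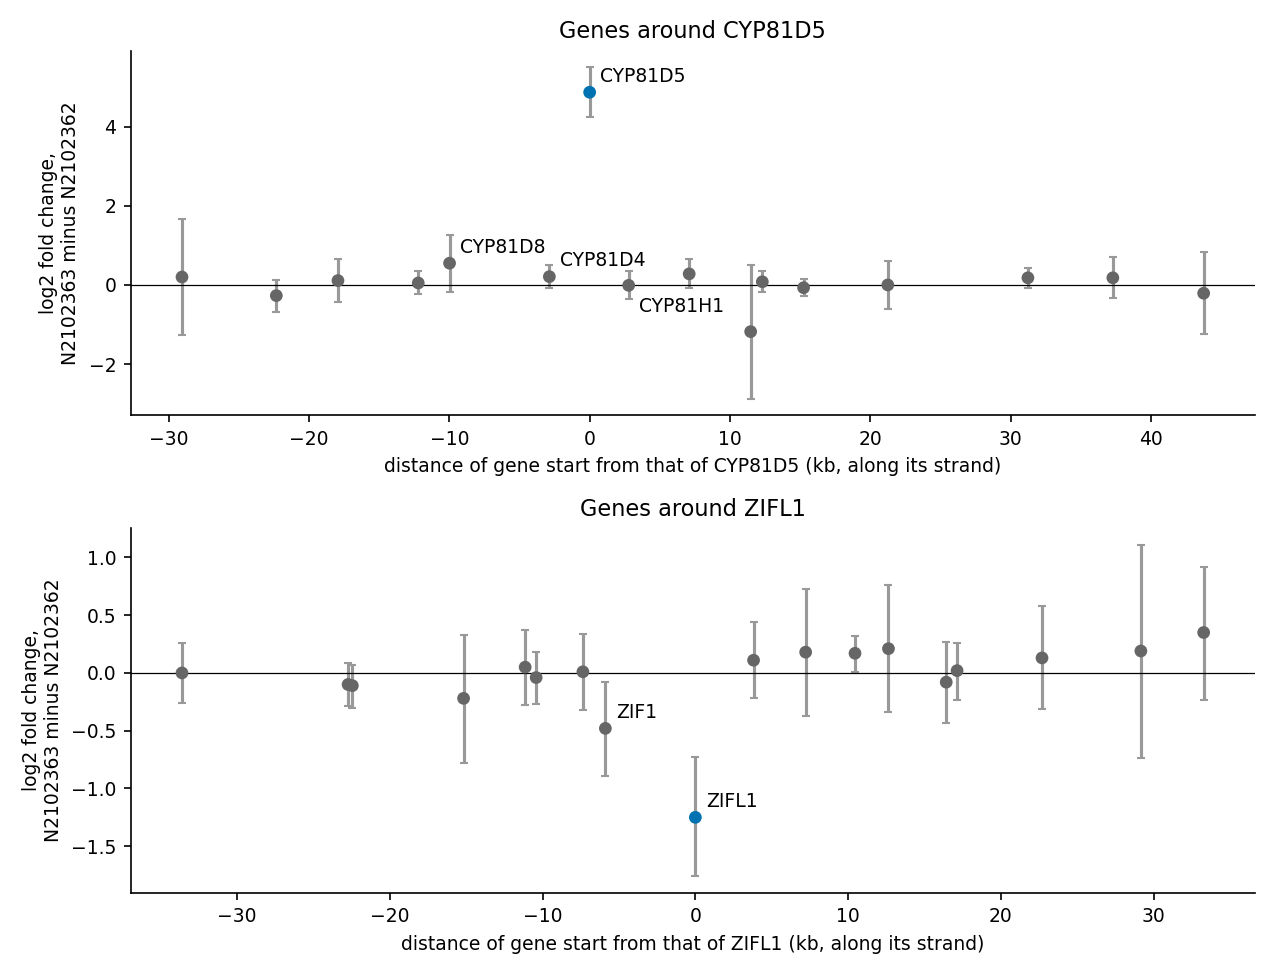
Log2 fold change between the lines (N2102363 minus N2102362) of CYP81D5, ZIFL1 and their tested neighbours, against the distance between gene starts in kb along the strand of the central gene. Points are genes and bars are 95% intervals; the neighbours of CYP81D5 lie between -1.18 and 0.55 beside its 4.87, and ZIF1 at -0.48 is the lowest neighbour of ZIFL1 at -1.25.

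Over the whole transcriptome few genes passed a threshold in the main fit, which did not use the pairing. The median log2 difference was -0.008, a value that TMM scaling holds near 0 in advance, with 9394 genes higher and 10272 lower in N2102363. At an unadjusted p under 0.05 there were 461 genes (2.34%), 191 higher (0.971%) and 270 lower (1.37%). A log2 difference of at least 1 in size was fitted for 105 genes, 35 higher and 70 lower. For 17263 genes (87.8%) the 95% interval of the fold change lay wholly within a log2 difference of 1 either way, so for these a difference of 2-fold or more was outside the interval. The median half-width of that interval was 0.33. DESeq2 called 4 of 26183 genes (0.0153%), CYP81D5 higher and ZIFL1, ABH1 and AT5G24240 lower. The blocked fit of the 8 line libraries called 2 of 19261 (0.0104%), CYP81D5 and ZIFL1, and put 1581 genes (8.21%) at an unadjusted p under 0.05, where the blocked fit of all 14 put 654 (3.33%). If no gene differed, a share of about 0.05 would be due at that p. The main fit and the blocked fit of all 14 libraries lay below that share, and the blocked fit of 8 above it. In the main fit the number depended on single libraries. It was 1325 without N2102362 replicate 4, 919 without replicate 1 of that line, 273 without replicate 3 and 205 without replicate 2.

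**Figure D3:**
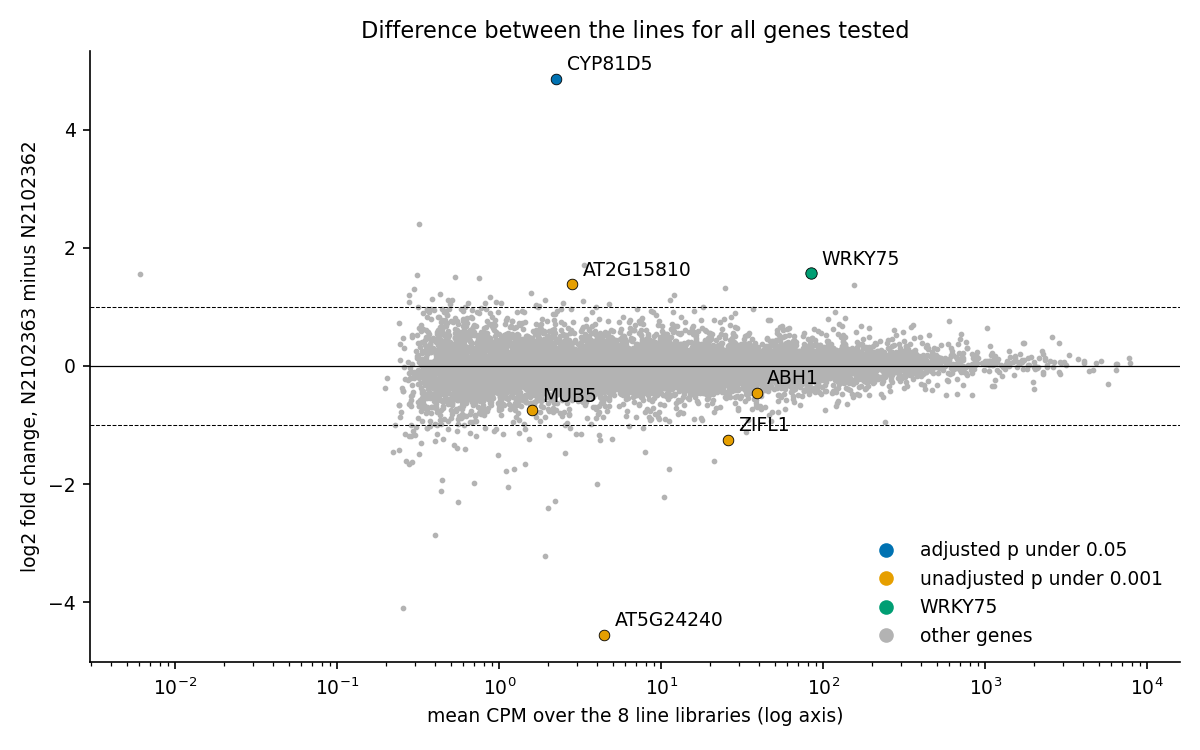
Log2 fold change between the lines (N2102363 minus N2102362) against mean CPM over the 8 line libraries (log axis) for the 19666 genes tested. The blue point is the called gene CYP81D5, orange points have an unadjusted p under 0.001, the green point is WRKY75 and dashed lines mark a log2 change of 1; nearly all genes lie between the dashed lines.

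ABH1, MUB5 and AT5G24240 are named after their values were seen, because they had an unadjusted p under 0.001. ABH1 (AT2G13540) encodes the large subunit of the nuclear cap-binding complex, which acts in RNA processing and in abscisic acid signalling. It held 41.9 to 48.5 CPM in N2102362 and 29.6 to 34.9 CPM in N2102363. Col-0 held 39.1 to 49.4 CPM, so N2102363 was again the line apart. The log2 fold change was small and even across pairs, -0.45 ± 0.08 (SE; adjusted p = 0.874 by edgeR, 0.00495 by DESeq2). MUB5 (AT1G77870), a gene for a membrane-anchored ubiquitin-fold protein, differed in the same direction by -0.75 ± 0.14 (SE, adjusted p = 0.874). Its levels were 1.90 to 2.20 CPM in N2102362 and 1.14 to 1.21 CPM in N2102363, with Col-0 in between at 1.21 to 1.70 CPM.

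AT5G24240, annotated as a phosphatidylinositol 4-kinase gamma-like gene, was uneven within N2102362. It held 2.72, 10.7, 20.5 and 0.308 CPM there, against 0.266 to 0.484 CPM in N2102363 and 0.269 to 0.567 CPM in Col-0. Replicates 1 to 3 of N2102362 stood above all other libraries, and replicate 4 did not. The log2 fold change was -4.55 ± 0.91 (SE, adjusted p = 0.966 by edgeR). It was called without N2102362 replicate 4 (-4.95, adjusted p = 0.0173) and by DESeq2 (-4.57, adjusted p = 6.04e-05), while without N2102362 replicate 3 the value was -3.65 (adjusted p = 1.00). The gene overlaps AT5G24230 and AT5G24250 in the annotation, and the library kit does not mark strand. Its reads in the shared stretches therefore cannot be told apart from theirs, and the length of the overlap was not measured.

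Genes whose libraries did not overlap between the lines numbered 206 higher (1.05%) and 199 lower (1.01%) in N2102363. Leaving replicate 4 out of both lines gave 1112 and 1198, a count over 3 libraries against 3. Fewer libraries overlap less often by construction, but the count also depended on which library was left out. Without N2102362 replicate 4 alone it was 854 higher and 905 lower. Without N2102362 replicate 2 alone it was 293 and 298. The part of each in the rise was not tested, and the rise is not read as a difference between the lines. Among the full set, 4 higher and 2 lower genes also had a mean of at least 1 CPM, one direction in 4 of 4 pairs and a log2 fold change of at least 1 in size. Besides CYP81D5 and ZIFL1 these were AT2G15810, CDC6, AT5G39580 and AT2G28780. The pseudogene AT2G15810 held 1.17 to 2.06 CPM in N2102362 and 3.57 to 4.91 CPM in N2102363, above the 0.570 to 2.18 CPM of Col-0. The fitted log2 fold change was 1.38 ± 0.32 (SE, adjusted p = 1.00 by edgeR). It resembles 12 other genes, the closest at 81.0% identity and none at 95% or more. Whether any of its reads are shared was not tested.

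The others varied more. CDC6, which licenses DNA replication, held 1.13 to 4.73 CPM in N2102362 and 4.97 to 9.13 CPM in N2102363, and a Col-0 library reached 8.66 CPM. The peroxidase gene AT5G39580 held 0.316 to 2.91 CPM against 3.61 to 6.96 CPM, and a Col-0 library reached 16 CPM. AT2G28780 held 0.826 to 3.70 CPM against 0.308 to 0.676 CPM, with Col-0 at 0.686 to 3.31 CPM. Their log2 fold changes were 1.04 ± 0.51, 1.70 ± 1.01 and -1.75 ± 0.57 (SE), each with an adjusted p of 1.00 by edgeR. For CDC6, AT5G39580 and AT2G28780 the spread over Col-0 libraries was thus as wide as the gap between the lines.

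It was also counted which line stood outside everything else. N2102363 lay above all 10 other libraries for 58 genes (0.295%) and below all of them for 61 (0.310%). N2102362 did so for 4 genes (0.0203%) and 6 genes (0.0305%). CYP81D5 was among the latter, and ZIFL1 and ABH1 among the 61. Without replicate 4 of both lines, and so against 9 other libraries, the counts were 320 (1.63%) and 311 (1.58%) for N2102363, against 34 (0.173%) and 31 (0.158%) for N2102362. The spread within the lines is given beside these counts. The median SD of log2 CPM between libraries was 0.203 in N2102362 and 0.170 in N2102363, and 0.148 and 0.146 without replicate 4. The part of that spread in the counts was not tested.

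Genes that differed between each line and wild type were set side by side to see whether they tracked the amount of WRKY75. Against Col-0 with estradiol 6 genes were called in N2102362 (0.0305%) and 5 in N2102363 (0.0254%). Besides WRKY75, both calls held AT3G01345, IRT3, AT1G42140 and TPPI. The comparisons share their Col-0 libraries, so nothing is read from the overlap. Between the lines none of these 4 was called. IRT3, a metal transporter gene of the ZIP family, held 0.234 to 1.13 CPM in N2102362 and 0.399 to 1.40 CPM in N2102363, with Col-0 at 8.32 to 18.9 CPM. The lines differed by a log2 fold change of 0.51 ± 0.51 (SE; 95% interval -0.58 to 1.60). It was higher in N2102363 in 4 of 4 pairs, as were 8.44% of all genes tested, with pair differences of 0.29, 0.06, 0.68 and 0.22 on the scale of log2(CPM + 0.5). With the replicate block the log2 fold change was 0.53 (adjusted p = 0.953).

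TPPI, which encodes a trehalose-6-phosphate phosphatase, held 2.90 to 3.74 CPM in N2102362 and 3.36 to 4.66 CPM in N2102363. The fitted log2 difference between N2102363 and N2102362 was 0.14 ± 0.16 (SE; 95% interval -0.21 to 0.49). The pseudogene AT1G42140 held 1.22 to 1.85 CPM and 1.35 to 1.64 CPM, a change of -0.03 ± 0.23 (95% interval -0.52 to 0.46). It resembles 182 other genes. AT3G01345 was near 0 in both lines, at 0.0468 to 0.680 CPM and 0.0887 to 0.290 CPM, and at 130 to 185 CPM in Col-0. Its log2 change between the lines, -0.20 ± 0.72, had a wide interval from -1.76 to 1.35. The libraries of the lines overlapped for all 4 genes, and the other 3 were each higher in N2102363 in 2 pairs and lower in 2.

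The replicate number took more of the spread between libraries than the line did. Over the 8 line libraries, replicate number took 64.9% of the spread in log2 CPM with 3 degrees of freedom, the line 12.2% with 1, and the rest 22.9% with 3. The deviation of the replicate 4 mean from the mean of all 8 libraries made up 28.4% of the spread. The same term was 13.2% for replicate 1, 14.6% for replicate 2 and 8.71% for replicate 3. On the first principal component, with 44.8% of the variance, replicate 4 stood at 50.8 in N2102362 and 40.5 in N2102363, and the other 6 libraries between -40.1 and 15.5. What sets replicate 4 apart, beyond the date in its file names, was not found in the labels.

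**Figure D4:**
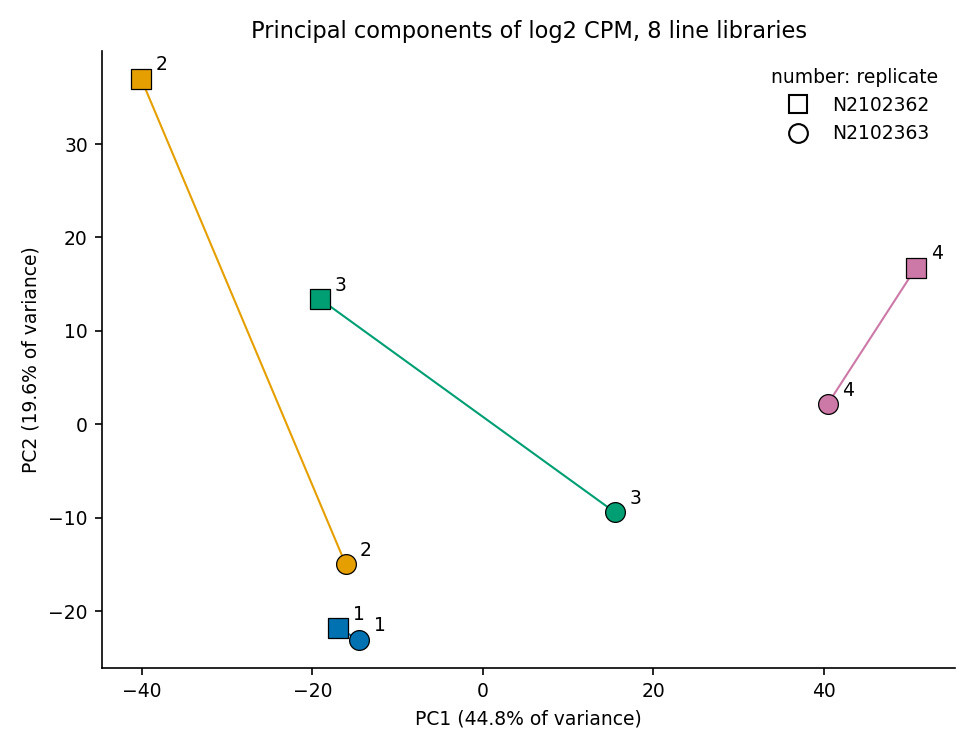
The first principal components of log2 CPM over the 8 line libraries, with 44.8% and 19.6% of the variance on the axes. Squares are N2102362 and circles N2102363, numbers and colours give the replicate and lines join same-numbered libraries. Both replicate 4 libraries lie at the right and both replicate 1 libraries lie together at the lower left. N2102363 replicate 2 lies near the replicate 1 libraries and far from N2102362 replicate 2, and the replicate 3 libraries also lie apart.

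Known pathways were examined through 22 gene lists, of which 247 of 280 entries were tested. In these lists 0 members were called in either direction by edgeR, against 0.00508% over all genes. The only list gene whose libraries did not overlap was PHR1, the central regulator of phosphate starvation, at 62 to 64.9 CPM in N2102362 and 65.5 to 68.0 CPM in N2102363. Its log2 fold change was 0.06 ± 0.06 (SE, adjusted p = 1.00). That is 1 of 247 list entries tested, beside 405 of 19666 genes (2.06%) overall. Values were known when the list members below were picked, mostly for the largest changes in their list. Their adjusted p was 1.00 throughout. Where a member is given as higher or lower in 4 of 4 pairs, 8.44% of all genes tested were higher and 8.73% lower by that measure.

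WRKY group IIc, the clade of WRKY75, had 9 of 11 tested members higher, with a median log2 change of 0.14. WRKY75 is itself among them. WRKY28, a regulator in salicylic acid synthesis, held 6.85, 2.98, 3.41 and 3.44 CPM in N2102362 and 7.70, 10.3, 6.04 and 5.62 CPM in N2102363. It was higher in 4 of 4 pairs, with a log2 fold change of 0.83 ± 0.40 (SE). WRKY45, the nearest relative of WRKY75 in sequence here, with 77.8% identity over 126 bases, had 0.42 ± 0.35.

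Several lists changed direction from pair to pair. The median over all genes stayed within 0.009 of 0 in every pair, but TMM scaling holds it near 0 in advance. All 22 jasmonate genes were higher in N2102363 in pair 1 (median log2 difference 0.38), and 19 of 22 were lower in pair 3 (median -0.58). CYP94C1, which oxidises the active hormone, held 8.79, 14.4, 6.41 and 27.3 CPM in N2102362 and 10.7, 91.0, 10.5 and 29.1 CPM in N2102363. Its log2 fold change of 1.32 ± 0.94 (SE) came to 0.24 without N2102363 replicate 2. JAZ10, a repressor of jasmonate signalling, was higher in 4 of 4 pairs at 0.69 ± 0.67.

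Salicylic acid genes were higher in 16 of 18 in pair 1 and lower in 17 of 18 in pair 3. PR2, a glucanase gene and marker of this pathway, held 59.2, 21.2, 18.5 and 14.4 CPM in N2102362 and 133, 17.1, 6.52 and 6.12 CPM in N2102363. Replicate 1 was the highest library of each line, and N2102363 was higher only there. The log2 fold change was 0.52 ± 0.85 (SE) and turned to -0.42 with the replicate block and to -1.51 without N2102363 replicate 1. The WRKY genes of this pathway, WRKY70 and WRKY54, had values of -0.43 ± 0.41 and -0.59 ± 0.51.

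Touch and rapid stress genes, which respond within minutes to handling, were lower in 11 of 12 in pair 3 (median -1.11) and higher in 12 of 12 in pair 4 (median 0.65). CBF1, a cold-response transcription factor gene, held 5.05, 4.38, 5.05 and 0.154 CPM in N2102362 and 1.80, 0.532, 0.193 and 0.401 CPM in N2102363. Its log2 fold change was -2.29 ± 1.16 (SE), and that of its relative CBF2 was -1.23 ± 0.87. N2102363 was lower in pairs 1 to 3 and higher in pair 4 for both. Ethylene and ERF defence genes were lower in 13 of 18 in pair 3 (median -0.90) and higher in 14 of 18 in pair 4 (median 0.24). ERF1, a transcription factor of ethylene defence, had 0.50 ± 0.42, and ACS6, an enzyme of ethylene synthesis, -0.51 ± 0.54.

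Aliphatic glucosinolate genes, for defence compounds made from methionine, formed the one list of more than 3 tested genes with a single sign in the fit. All 14 were lower in N2102363, with a median log2 change of -0.39 and a range from -0.81 to -0.18, beside a median of -0.008 and 10272 of 19666 lower over all genes. The pairs did not agree, since 13 of 14 were higher in pair 1 (median 0.21), while 14 of 14 were lower in pairs 2 and 3 (medians -0.61 and -0.79) and 11 of 14 in pair 4. CYP83A1, an enzyme of the core pathway, held 122, 230, 151 and 218 CPM in N2102362 and 130, 129, 81.1 and 159 CPM in N2102363. Its log2 fold change was -0.53 ± 0.28 (SE). BAT5, a transporter of pathway intermediates, had -0.55 ± 0.34 and MAM3, a chain-elongation enzyme, -0.81 ± 0.54. Col-0 ranged from 120 to 273 CPM for CYP83A1. Summed over the list, Col-0 held 914 to 1640 CPM, N2102362 1540 to 2720 CPM and N2102363 1330 to 1830 CPM, so both lines reached above the wild-type range and N2102362 further. In the camalexin and indole glucosinolate list 15 of 16 were lower in pair 3, with -0.43 ± 0.29 for the regulator MYB34 and 0.55 ± 0.34 for CYP71A12 of the camalexin branch.

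**Figure D5:**
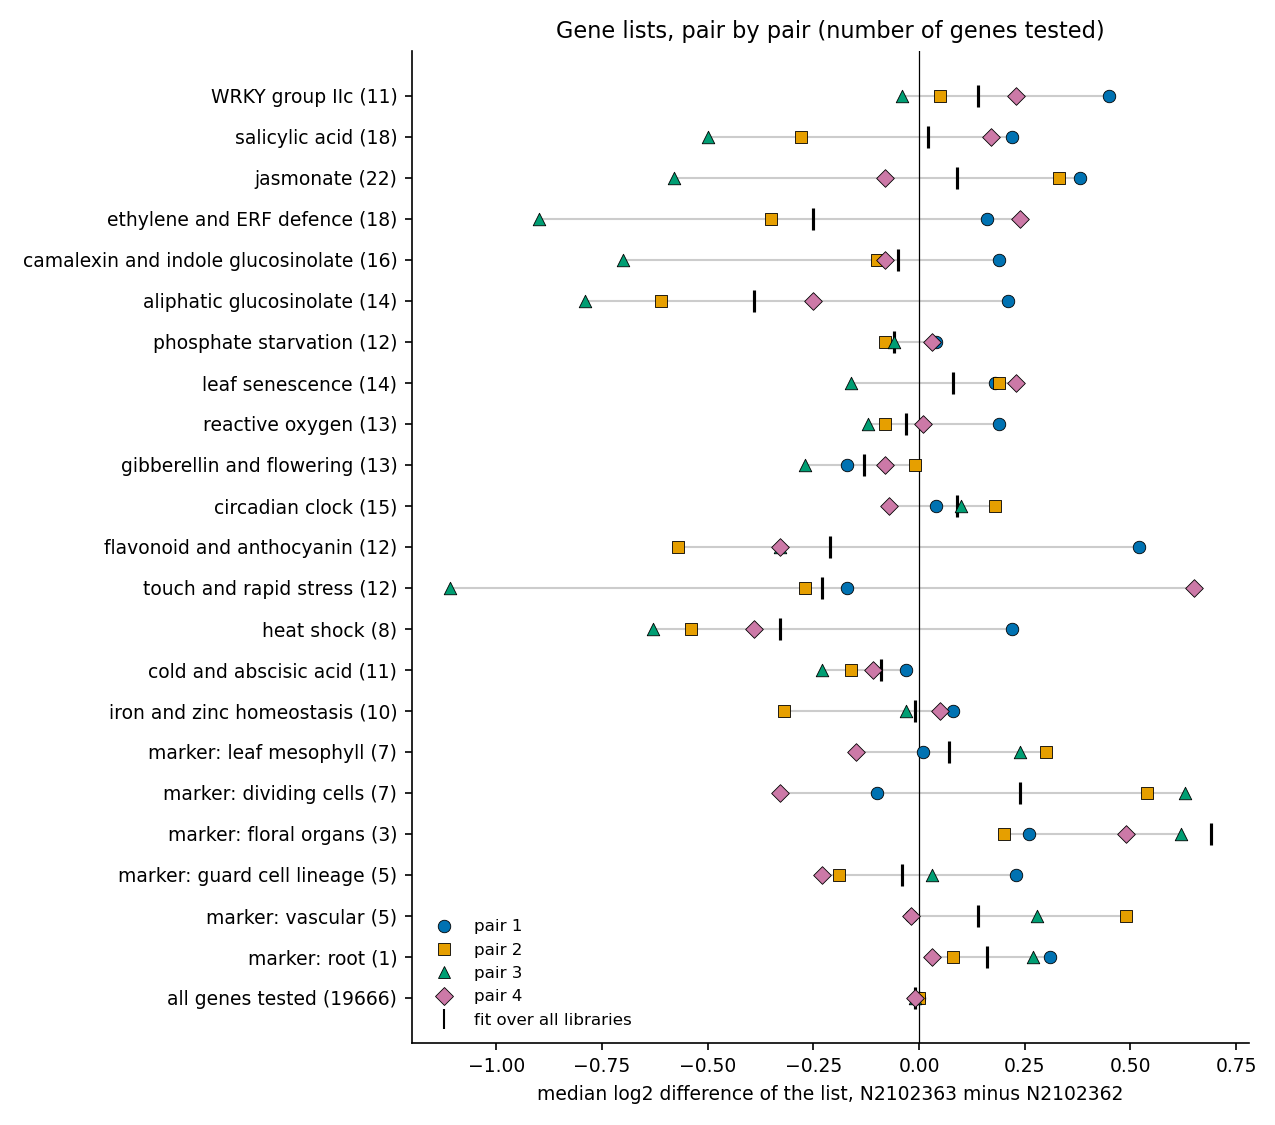
Median log2 difference (N2102363 minus N2102362) of each gene list, with coloured symbols for the 4 same-numbered pairs and a black tick for the fit over all libraries; the number of genes tested stands beside each name. Touch genes run from -1.11 in pair 3 to 0.65 in pair 4. The median over all genes stays near 0 in every pair, where TMM scaling places it.

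Phosphate starvation and leaf senescence are processes for which WRKY75 is known. Phosphate starvation genes had a median log2 change of -0.06, with 5 of 12 higher. PS2, a phosphatase gene induced by low phosphate, had -0.66 ± 0.52 (SE). Leaf senescence genes had a median of 0.08, with 10 of 14 higher. SEN1, a dark- and senescence-induced gene, held 748, 224, 317 and 474 CPM in N2102362 and 913, 1050, 485 and 555 CPM in N2102363. It was higher in 4 of 4 pairs at 0.77 ± 0.46, and so was the senescence regulator WRKY6 at 0.48 ± 0.31. The salicylic acid list had a median of 0.02 and the reactive oxygen list of -0.03. APX1, a cytosolic ascorbate peroxidase gene that removes hydrogen peroxide, held 394, 623, 439 and 473 CPM in N2102362 and 347, 418, 327 and 382 CPM in N2102363. It was lower in 4 of 4 pairs at -0.39 ± 0.16 (unadjusted p = 0.0309), and the lines overlapped.

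The gibberellin and flowering list had a median of -0.13, with GA20OX1, a gibberellin synthesis gene, lower in 4 of 4 pairs at -0.50 ± 0.21 (SE). The flavonoid list was higher in 11 of 12 in pair 1 and lower in 12 of 12 in pair 4. The anthocyanin regulators MYB90 and MYB75 had -3.22 ± 1.51 and -0.93 ± 0.62, and for both N2102362 replicate 2 was the highest line library, MYB90 at 11.7 CPM. Without that library the values were -0.96 and -0.18. Heat shock genes were higher in 7 of 8 in pair 1 and lower in 8, 7 and 7 of 8 in pairs 2 to 4, with -0.74 ± 0.35 for HSP70 and -0.76 ± 0.45 for its regulator HSFA2. Clock genes had a median of 0.09 and cold and abscisic acid genes of -0.09. Iron and zinc genes had a median of -0.01, with NAS1, a nicotianamine synthase gene, at -0.72 ± 0.41.

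Markers of tissues were read as a check of what the rosette pools held. In bulk samples, fewer cells of a type and less RNA per cell cannot be told apart. The 7 mesophyll markers summed to 21500 to 42000 CPM in N2102362 and 24800 to 37500 CPM in N2102363, beside 18400 to 28500 CPM in Col-0, and RBCS1A, a Rubisco subunit gene, had 0.14 ± 0.29 (SE). All 7 were higher in pair 3 and lower in pair 4. Dividing-cell markers were higher in 7 of 7 in pairs 2 and 3 and lower in 6 of 7 in pair 4, with summed levels of 27.2 to 79.3 CPM and 44.5 to 72.4 CPM. CDKB2;1, a mitotic kinase gene, had 0.24 ± 0.25. Of 6 floral organ markers 3 were tested, summing to 1.59 to 2.78 CPM in N2102362 and 2.31 to 4.81 CPM in N2102363. PI and AG, floral organ identity genes, were higher in 4 of 4 pairs at 0.73 ± 0.52 and 0.69 ± 0.35. Medians were -0.04 for 5 guard cell, 0.14 for 5 vascular and 0.16 for the 1 tested of 3 root markers, and the root hair gene RHD6 was at 0 in all line libraries. The part of these markers in the pair-to-pair changes of other lists was not tested.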

How the data were processed

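RNA was sequenced from 100 ng of total RNA per pool with the TruSeq RNA v2 kit, which does not mark strand. The deposited values are whole-number read counts per gene, made by the authors with FastQC, TopHat2, SAMtools and HTSeq on TAIR10, per the submitters' processing notes; versions and the handling of multiply mapped reads are not given in the sources used here. Library totals ran from 20456036 to 20789232 in N2102362, from 20559563 to 22605970 in N2102363 and from 20520901 to 20767791 over Col-0, and 1 count was 0.044 to 0.0528 CPM. Of 33602 genes, filterByExpr (minimum count 10) kept 19666 and removed 13936. The fit used edgeR 4.0.16 (R 4.3.3) on all 14 libraries, TMM scaling, group as the sole factor and the robust quasi-likelihood F test, with 10 residual degrees of freedom and a biological coefficient of variation of 0.1959. Genes were called at a Benjamini-Hochberg adjusted p under 0.05, and SEs came from the F statistic. Pair differences used log2 of CPM plus 0.5. The labels name biological replicates, 4 per line in the design text and 3 in the extraction protocol. Libraries of a group were not near copies of each other (chi-square per degree of freedom 14.06 or more, correlations 0.957 to 0.988).

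Replicate numbers were taken to pair the lines. Deviations from the line means correlated at 0.224 to 0.731 between same-numbered libraries and at -0.549 to 0.244 between others. The value of 0.731 was that of replicate 4, and 0.224, that of replicate 3, lay below the highest of the others. Deviations cancel out within a line, which lowers the values between other numbers in advance. The check therefore does not settle the pairing, and the labels do not say what a number marks. Alternatives were a replicate block (all 14 libraries or the 8 line libraries), the 8 libraries without block, DESeq2 1.42.0, RLE scaling, other filters, leaving out replicate 4 of both lines and leaving out each line library. Named genes were WRKY75, genes called, non-overlapping genes with 4 of 4 pairs and a log2 change of 1, genes called in a line against Col-0 with estradiol, and up to 3 per list by size; others are marked in the text. The members and lists were chosen with earlier results of these data known. Gene starts in the files count from 0 and were raised by 1. The TAIR10.1 nuclear chromosomes were long enough for all gene ends in the files. Similar genes were searched with blastn 2.17.0, at 100 or more matched bases. The scripts were tested on simulated counts.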

Additional observations from a re-analysis of the deposited data

Results flagged for a closer look

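In 4-library groups, 46 genes were checked in each line (92 groups) for 1 library whose gap to the others took up most of the range. Such groups numbered 13. A chance rate of about 1 in 20 holds for independent groups of unselected genes. These genes were picked with values known and share their libraries, so the 13 are not read against that rate. WRKY75 in N2102362 stood at 82.1 CPM in replicate 4 and at 28.2 to 30.7 CPM in the others. WRKY70 and CBF1 were low in the same library, at 42.1 CPM beside 135 to 150 and at 0.154 CPM beside 4.38 to 5.05. AG in N2102363 stood at 1.96 CPM in replicate 4, beside 0.798 to 0.968.

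Replicate 1 of N2102362 was high for AT3G01345 (0.68 CPM beside 0.0468 to 0.0902), WRKY28 (6.85 beside 2.98 to 3.44) and PR2 (59.2 beside 14.4 to 21.2), and low for NAS1 (0.923 beside 2.15 to 2.39). Replicate 1 of N2102363 was high for PR2 (133 CPM beside 6.12 to 17.1) and low for MUB5 (1.14 beside 1.2 to 1.21). MUB5 was high in N2102362 replicate 3 (2.20 CPM beside 1.90 to 1.94), MYB90 was high in N2102362 replicate 2 (11.7 beside 0.0971 to 1.64) and PI was low in N2102363 replicate 2 (1.11 beside 1.88 to 2.01).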

How the results depend on the processing

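CYP81D5 was called under every alternative run, with log2 fold changes of 4.73 to 5.02 without 1 library (adjusted p 3.11e-05 to 0.000127). The number of genes called was 1 as reported, 2 with the replicate block in 8 libraries, 4 with DESeq2 and 1 to 2 without 1 library; those lower in N2102363 were 0, 1, 3 and 0 to 1, and those higher 1 throughout. In the replicate block fit of all 14 libraries WRKY75 had 1.67 (adjusted p = 0.953), with 8 libraries 1.67 (0.599), and 1.4 to 2.1 without 1 library (0.177 to 1.00). Its unadjusted p by edgeR's quasi-likelihood test was 0.00031 with the block in 14 libraries and 0.000391 in 8. The block changed no call other than that of ZIFL1. Non-overlapping genes numbered 1112 higher and 1198 lower without replicate 4 of both lines, and 293 to 854 and 298 to 905 without 1 library. Fewer libraries per line overlap less often by construction, and the number also depended on which library was left out. A block without replicate 4, added after seeing the data, called 1 gene.

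Of 776 alternative values for 46 named genes, 761 kept direction and side of the threshold, 5 (ABH1, ZIFL1, AT5G24240) passed it and 10 changed sign. The latter were PR2 (-0.42 and -0.35 with the replicate block in 14 and 8 libraries, -0.16 without replicate 4 as well, -1.51 without N2102363 replicate 1), AT3G01345, AT1G42140 (0.0 with the replicate block without replicate 4) and RBCS1A; without 1 library in turn these genes ranged from -1.51 to 1.18 (PR2), -0.53 to 1.47 (AT3G01345), -0.13 to 0.06 (AT1G42140) and -0.03 to 0.48 (RBCS1A). The cause was not tested. Of 374 list medians, 361 moved by less than the spread and 13 by more. Low counts limit CYP81D5 in N2102362 and AT3G01345.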
